A study of Mus musculus with 8 samples.

Results

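The genes described here encode proteins that the airway and lung epithelium secretes against microbes or uses to defend its surface. They are Bpifa1, Bpifb1, Ltf, Reg3g, Lcn2, Lyz1, Lyz2, Pigr, Hp and Slpi, 10 of the 43432 genes of the count table, each taken as the 1 row whose Ensembl identifier carries that symbol. RNA was sequenced from sorted lung epithelial cells of C57BL/6J mice aged 14 weeks, in 3 groups that all came through an EpCAM+CD45- gate. The WT group (3 libraries) holds all cells of that gate from wild-type mice. The C/+ group (3 libraries) and the C/C group (2 libraries) hold the ChiaRed+ cells of that gate from mice heterozygous or homozygous for ChiaRed, a reporter of the gene for acidic mammalian chitinase (AMCase, Chia1), an enzyme that breaks down chitin. WT libraries thus differ from the others in the sorted cells as well as in genotype, and those 2 differences cannot be told apart, whereas C/+ and C/C share the reporter gate. The labels do not say whether libraries of a group came from separate animals, so that p-values measure the spread between these libraries, which may be technical.

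Airway lining fluid carries a mixture of proteins made by secretory cells, ciliated cells, submucosal glands and recruited leukocytes. Some act on microbes directly by cutting their walls or binding their membranes, others withhold iron, shield the tissue from proteases or carry antibody across the epithelium. In the mouse lung, club cells of the conducting airways are known for secretoglobins such as Scgb1a1 and for BPI-fold proteins, and alveolar type 2 cells are known for surfactant proteins and for Lyz2. Lactoferrin, lipocalin 2 and lysozyme are also stored by neutrophils or macrophages, so the markers of those cells are given beside the genes concerned. In bulk RNA, fewer cells of a type and less RNA per cell cannot be told apart.

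Total counts ran from 17057216 to 52319957 per library. Chia1, the gene under the reporter, lay at 267 to 454 CPM (counts scaled to library size, with TMM factors) in WT, at 223 to 341 in C/+ and at 0.365 to 1.45 in C/C. The WT and C/+ libraries thus overlapped in Chia1, and both C/C libraries lay far below them. Epcam lay at 157 to 202 CPM and Ptprc (CD45) at 0.118 to 1.80 CPM over all 8 libraries. The 6 epithelial markers summed to 1375 to 1580 CPM in WT, 1270.4 to 1383 in C/+ and 1674 to 1709.8 in C/C. The largest part was Cdh1 (means of 796, 637 and 707 CPM in WT, C/+ and C/C). Krt8 had means of 112, 107 and 202 CPM. By the edgeR test described below, Krt8 was higher in C/C than in C/+ (adjusted p = 0.00582) and than in WT (0.0242). No other marker of the 6 passed that test in any comparison. Read from Xist and Y-linked genes, WT replicates 2 and 3 and C/+ replicate 1 were male and the other 5 libraries female, with both C/C libraries female. WT and C/+ thus each held RNA of more than 1 animal.

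The 10 genes fell into 2 patterns. Bpifa1, Bpifb1, Ltf and Reg3g were near 0 in C/C, low in WT and highest in C/+. Lyz1, Lyz2, Lcn2, Hp, Slpi and Pigr were present in every library and differed between group means by at most 2.35 times, the ratio of WT to C/C for Pigr, which rests on WT replicate 1. All 10 passed the filter on low counts that left 14906 genes. A gene is said to be called, and to have risen or fallen, where the two-sided quasi-likelihood test of edgeR gave a Benjamini-Hochberg adjusted p under 0.05 over all tested genes. Of the 10, 4 rose in C/+ against WT and none fell, against 3.92% called over all tested genes (3.42% called higher, 0.503% called lower). In C/C against C/+, 4 fell and none rose, against 7.08% called over all tested genes (1.75% called higher, 5.33% called lower). The comparison of C/C against WT called 1 higher and none lower, against 2.98% called over all tested genes (1.62% called higher, 1.36% called lower). At an unadjusted edgeR p under 0.05, 7 were higher and none lower in C/+ against WT, beside 12.3% higher and 7.8% lower over all tested genes. At the same threshold 6 were lower and none higher in C/C against C/+, beside 7.85% higher and 13.1% lower over all, and 1 was higher and 4 lower in C/C against WT, beside 10.1% and 12%. The DESeq2 test called 5 higher and none lower in C/+ against WT (5.94% higher and 2.12% lower over all genes it gave an adjusted p), and 5 lower and none higher in C/C against C/+ (2.48% higher and 6.96% lower over all). It called 1 higher and 3 lower (Bpifa1, Ltf and Reg3g) in C/C against WT, where 4.32% of all were higher and 5.21% lower. The median log2 fold change of the 10 was 0.65, -0.66 and -0.62 in these comparisons, and that of all tested genes 0.00, -0.01 and -0.03. The comparisons share groups, so their values are given side by side and not as independent results. The 10 genes were chosen with earlier results of these data known, so their counts beside the shares over all genes are a description.

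**Figure D1:**
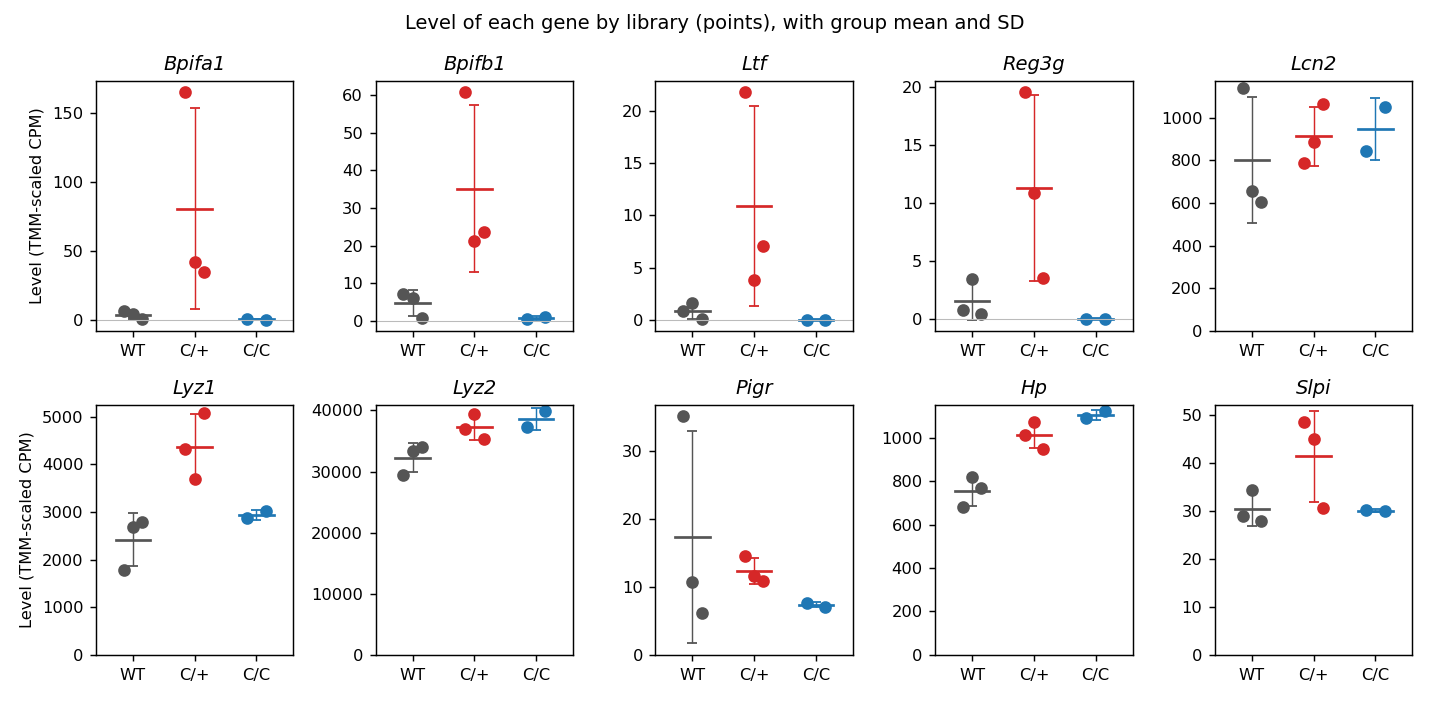
Level of each of the 10 genes (vertical axis, TMM-scaled CPM, linear, a separate scale per panel) in the 8 libraries by group; points are libraries, horizontal bars group means and vertical bars 1 SD. In the top row Bpifa1, Bpifb1, Ltf and Reg3g stand high in C/+ and near 0 in C/C, while the other 6 genes lie well above 0 in all groups.

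C/+ libraries lay above all WT libraries for 7 of the 10 genes (24.8% of all tested genes did not overlap, 14.1% with C/+ above). C/C libraries lay outside the range of C/+ for 8 of the 10, below it for 7 (38.3% of all tested genes did not overlap, 20.2% with C/C below). C/C libraries lay outside the range of WT for 5 of the 10, above for 3 and below for 2 (43.3% of all tested genes did not overlap, 20.8% with C/C above and 22.6% with C/C below). Of the 2 below, Ltf rests on 0 and 1 counts in C/C against 2 in WT replicate 3. With 3 and 2 libraries such separations are frequent over all genes, and the share for C/C against WT is close to that background.

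Bpifa1 (ENSMUSG00000027483), the short BPI-fold protein also called SPLUNC1, is secreted by airway epithelium, lowers surface tension and acts on Gram-negative bacteria. It was counted at 6.15, 4.51 and 0.409 CPM in the WT libraries (replicates 1 to 3), at 165, 42.2 and 34.9 CPM in C/+ and at 0.413 and 0.0521 CPM in C/C. Every C/+ library lay above every WT and C/C library, C/+ replicate 1 stood highest, and the C/C libraries, with 18 and 2 counts, overlapped the lowest WT library. The group means were 3.69 ± 2.96 CPM (SD, n = 3) in WT, 80.6 ± 72.9 (n = 3) in C/+ and 0.233 ± 0.255 (n = 2) in C/C. Bpifa1 rose in C/+ against WT by 4.51 on the log2 scale (SE 0.85, edgeR adjusted p = 0.0205), which is 22.8-fold. It fell by 8.36 on the log2 scale in C/C against C/+ (SE 1.34, edgeR adjusted p = 0.00502), and the pooled counts, 6540 in C/+ against 20 in C/C, gave a rate ratio of 422 (95% exact interval 273 to 692, counting error only). C/C against WT gave a log2 fold change of -3.85 (SE 1.37, edgeR adjusted p = 0.137), which did not pass. With a library left out the log2 fold change of C/+ against WT ranged from 3.43 (without C/+ replicate 1) to 5.36 (without WT replicate 1), and that of C/C against C/+ from -10.49 (without C/C replicate 1) to -7.30 (without C/+ replicate 1). The rise in C/+ was lost without WT replicate 2 (adjusted p = 0.0766) or C/+ replicate 1 (0.069), and the fall in C/C was lost without C/C replicate 1 (0.065) or 2 (0.0725), where the lone C/C library was assumed to vary like the other groups.

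Bpifb1 (ENSMUSG00000027485), the long BPI-fold protein also called LPLUNC1, is made by secretory cells of the airway. Its levels were 7.19, 6.17 and 0.818 CPM in the WT libraries, 60.7, 21.2 and 23.6 CPM in the C/+ libraries and 0.459 and 1.17 CPM in the C/C libraries (20 and 45 counts). As for Bpifa1, all C/+ libraries were above all others, with replicate 1 the highest, and WT replicate 3 fell within the range of C/C. Means were 4.72 ± 3.42 CPM (SD, n = 3) in WT, 35.2 ± 22.2 (n = 3) in C/+ and 0.816 ± 0.505 (n = 2) in C/C. Bpifb1 rose in C/+ against WT by 2.94 (log2, SE 0.67, edgeR adjusted p = 0.0391) and fell by 5.45 in C/C against C/+ (SE 0.93, edgeR adjusted p = 0.00631), where the pooled rate ratio was 53.9 (95% exact interval 42.2 to 70.1). C/C against WT gave -2.51 (SE 0.89, edgeR adjusted p = 0.133). The log2 fold change of C/+ against WT ranged from 2.27 (without C/+ replicate 1) to 3.52 (without WT replicate 1), and that of C/C against C/+ from -6.25 (without C/C replicate 2) to -4.79 (without C/+ replicate 1). The rise in C/+ was lost in a fit of these 2 groups alone (adjusted p = 0.0591) and in 5 of the 8 fits that left out a library (without WT replicate 2, C/+ replicate 1 or 2, or C/C replicate 1 or 2; adjusted p from 0.0589 to 0.137), and the fall in C/C was lost without C/C replicate 1 (0.101) or 2 (0.0625).

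Both genes lie in the BPI-fold cluster of chromosome 2 (GENCODE M21 on GRCm38), Bpifa1 at chr2:154142880-154149219 and Bpifb1 at chr2:154190818-154220369, on the plus strand and with starts 47.9 kb apart. The cluster holds 13 genes from Bpifb2 to Bpifb9b, of which 3 had any count. The third is Bpifb5, which starts 80.9 kb from the start of Bpifa1 and next to Bpifb1. Its level was 42.2 ± 2.21 CPM (SD, n = 3) in WT, 40.6 ± 1.44 (n = 3) in C/+ and 41.9 ± 1.63 (n = 2) in C/C, and its log2 fold changes were -0.05 for C/+ against WT (SE 0.09, edgeR adjusted p = 0.776) and 0.05 for C/C against C/+ (SE 0.10, edgeR adjusted p = 0.86). Neighbours in the cluster thus gave different values over the same libraries. The other 10 genes of the cluster, Bpifa2, Bpifa3, Bpifa5, Bpifa6, Bpifb2, Bpifb3, Bpifb4, Bpifb6, Bpifb9a and Bpifb9b, had 0 counts in all libraries.

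**Figure D2:**
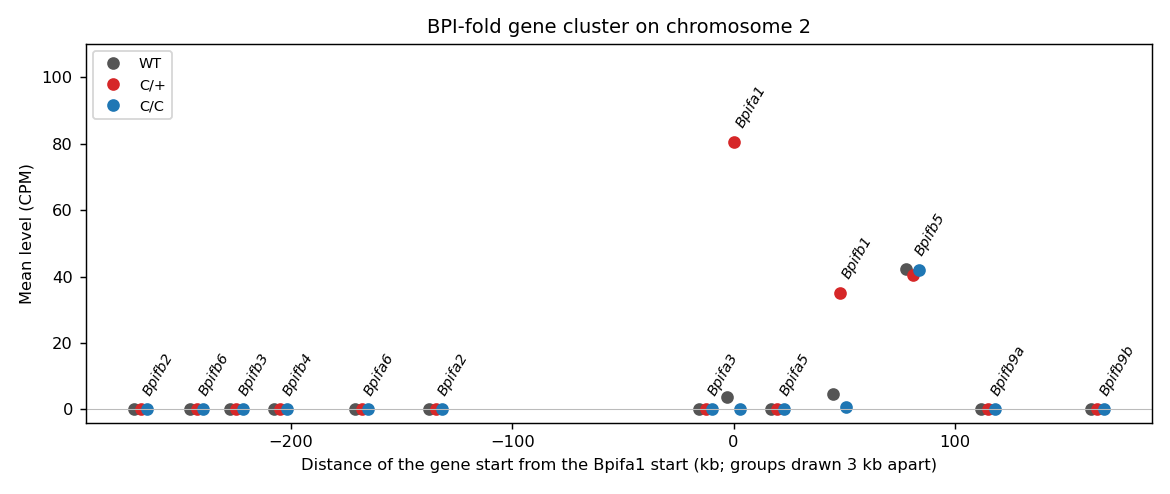
Mean level (vertical axis, TMM-scaled CPM) of the 13 genes of the BPI-fold cluster against the distance of their start from that of Bpifa1 (horizontal axis, kb), with a point per group drawn slightly apart. Bpifa1 and Bpifb1 stand highest in C/+, Bpifb5 lies near 41 CPM in all 3 groups and the other 10 genes lie at 0.

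Of the 15 further genes of the BPI and lipid-transfer family, 3 were tested, and 1 rose in C/+ against WT while 1 fell in C/C against C/+ (medians 0.27 and -0.06) and 1 fell in C/C against WT (median -0.01). It was the same gene in each case, Pltp, the phospholipid transfer protein, at 20.1 ± 11.3 CPM (SD, n = 3) in WT, 66.6 ± 22.1 (n = 3) in C/+ and 5.02 ± 0.135 (n = 2) in C/C. Pltp rose by 1.73 in C/+ against WT (log2, SE 0.35, edgeR adjusted p = 0.0252), fell by 3.73 in C/C against C/+ (SE 0.45, edgeR adjusted p = 0.00155) and fell by 2.00 in C/C against WT (SE 0.42, edgeR adjusted p = 0.0392). Lbp, which hands bacterial lipopolysaccharide to its receptor, lay at 182 to 220 CPM in the 3 group means and was not called. Bpi, the bactericidal protein for which the fold is named, had 1 count in the whole table.

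Ltf (ENSMUSG00000032496) encodes lactoferrin, a secreted protein that binds iron, and lies at chr9:111019271-111042767 on the plus strand. Its levels were 0.879, 1.61 and 0.0372 CPM in the WT libraries, 21.8, 3.78 and 7.06 CPM in the C/+ libraries and 0 and 0.0261 CPM in the C/C libraries. The C/+ libraries held 668, 81 and 120 counts, WT replicate 3 held 2, and the C/C libraries held 0 and 1, where a count of 0 allows a level of up to 0.0688 CPM. Ltf rose in C/+ against WT by 3.86 on the log2 scale (SE 0.91, edgeR adjusted p = 0.0439). It fell in C/C against C/+ (edgeR adjusted p = 0.00816), and since C/C held 1 count the size is given as the pooled rate ratio of 1122 (95% exact interval 201 to 44368). The corresponding ratio of WT to C/C was 56.8 (9.87 to 2276), and the test of C/C against WT did not pass (edgeR adjusted p = 0.135). The limit for the C/C library with 0 counts lies above the level of WT replicate 3, so that these 2 libraries cannot be ordered at this depth. With a library left out the log2 fold change of C/+ against WT ranged from 2.79 (without C/+ replicate 1) to 4.67 (without WT replicate 2). The rise in C/+ did not pass by the DESeq2 test (adjusted p = 0.0551), in a fit of these 2 groups alone (0.0696) or with the replicate block (0.0618), and was kept in 1 of the 8 fits that left out a library (without C/+ replicate 3, adjusted p = 0.0424; otherwise 0.0619 to 0.172), and the fall in C/C was lost without C/C replicate 1 (0.121) or 2 (0.0888).

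Neutrophils store lactoferrin and lipocalin 2, and their markers were near 0. The 10 neutrophil markers summed to 0.223 to 2.07 CPM in WT, 0.353 to 2.66 in C/+ and 1.03 to 1.17 in C/C, and Camp, Mpo, Elane and Ly6g had no count in any library. The C/C sum is mostly Retnlg (means of 0.388, 0.635 and 0.962 CPM in WT, C/+ and C/C). S100a9 (0.195, 0.614 and 0.0475 CPM) and S100a8 (0.0431, 0.182 and 0.0115 CPM) had their highest means in C/+, and Ngp, Csf3r and Cxcr2 in WT. The 7 markers of leukocytes in general summed to 6.53 CPM in C/+ replicate 1, the library highest in Ltf, against 0.840 and 0.471 CPM in C/+ replicates 2 and 3. They summed to 4.86, 6.55 and 1.49 CPM in the WT libraries, of which replicate 3 was also the lowest in Ltf. Other libraries differed: WT replicate 2, at 6.55 CPM of these markers, held Ltf at 1.61 CPM against 21.8 in C/+ replicate 1. C/+ replicate 3 stood above replicate 2 in Ltf (7.06 against 3.78 CPM). Neutrophil markers were highest in C/+ replicate 2 (2.66 CPM), the C/+ library lowest in Ltf. The part of leukocytes in the Ltf values was not tested.

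Reg3g (ENSMUSG00000030017) encodes a C-type lectin that binds the cell wall of Gram-positive bacteria and lies at chr6:78466269-78468872 on the minus strand. Its levels were 0.853, 3.46 and 0.465 CPM in the WT libraries, 19.6, 10.9 and 3.53 CPM in the C/+ libraries and 0.0688 and 0.0782 CPM in the C/C libraries (3 counts each). The lowest C/+ library stood only just above the highest WT library, and both C/C libraries lay below all others. Means were 1.59 ± 1.63 CPM (SD, n = 3) in WT, 11.3 ± 8.02 (n = 3) in C/+ and 0.0735 ± 0.0066 (n = 2) in C/C. C/+ against WT gave a log2 fold change of 2.96 (SE 0.73, edgeR adjusted p = 0.0519), with values from 2.27 (without C/+ replicate 1) to 4.13 (without WT replicate 2) when a library was left out. It missed the threshold and passed by the DESeq2 test (adjusted p = 0.0371), with the replicate block (0.0182), and without WT replicate 2 (0.0411) or C/+ replicate 3 (0.0217). Reg3g fell by 7.21 in C/C against C/+ (SE 1.20, edgeR adjusted p = 0.00561), with a pooled rate ratio of 192 (95% exact interval 87.8 to 524) from 892 and 6 counts, a call lost without C/C replicate 1 (0.0891) or 2 (0.0754). C/C against WT gave -4.25 (SE 1.22, edgeR adjusted p = 0.0839). The other 6 Reg genes were too low to test: Reg1, Reg2, Reg3a, Reg3b and Reg3d had 0 counts and Reg4 had 10 over all libraries.

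The sexes of the libraries cut across these values. Among the female libraries alone, WT replicate 1 lay below C/+ replicates 2 and 3 for all 4 genes and above both C/C libraries, and among the male libraries C/+ replicate 1 lay above WT replicates 2 and 3. With sex as a covariate the edgeR adjusted p for C/+ against WT was 0.00935 for Bpifa1, 0.0184 for Bpifb1, 0.0158 for Ltf and 0.011 for Reg3g, whereas in fits of these 2 groups alone it was 0.037, 0.0591, 0.0696 and 0.085 in the same order.

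**Figure D3:**
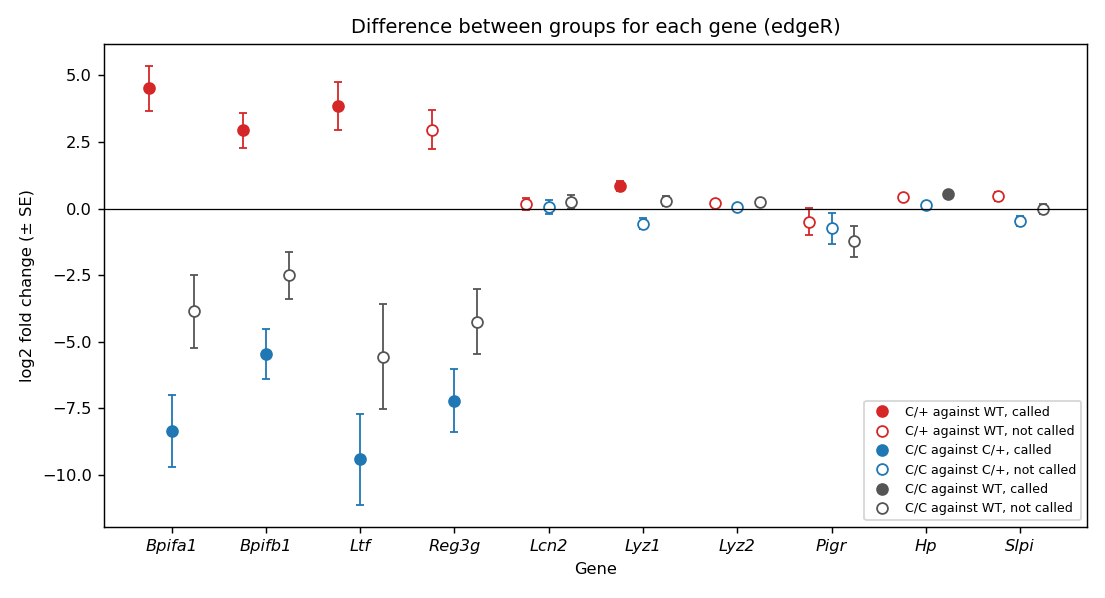
Log2 fold change of each gene (vertical axis, edgeR, with bars of 1 SE) in the 3 comparisons; filled points passed an adjusted p of 0.05 and open points did not. Bpifa1, Bpifb1 and Ltf carry filled points above 0 for C/+ against WT, and these and Reg3g filled points below 0 for C/C against C/+; the C/C values of Ltf rest on 1 count.

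Because these 4 genes fell together in C/C against C/+, the 250 bases before their starts are printed (RefSeq on GRCm38.p6, 5′ to 3′ along the gene), with matches to short motifs in capitals. Of the 10 genes 9 had an entry in that table. The Bpifa1 sequence is chr2:154142630-154142879 (plus strand), that of Bpifb1 chr2:154190568-154190817 (plus strand, the upstream-most of 2 starts), that of Ltf chr9:111019042-111019291 (plus strand) and that of Reg3g chr6:78468875-78469124 (minus strand).
Bpifa1: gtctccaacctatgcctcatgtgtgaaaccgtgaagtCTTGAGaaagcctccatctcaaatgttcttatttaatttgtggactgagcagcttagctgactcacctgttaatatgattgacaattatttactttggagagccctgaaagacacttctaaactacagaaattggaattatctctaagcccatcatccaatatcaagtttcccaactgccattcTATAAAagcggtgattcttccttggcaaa
Bpifb1: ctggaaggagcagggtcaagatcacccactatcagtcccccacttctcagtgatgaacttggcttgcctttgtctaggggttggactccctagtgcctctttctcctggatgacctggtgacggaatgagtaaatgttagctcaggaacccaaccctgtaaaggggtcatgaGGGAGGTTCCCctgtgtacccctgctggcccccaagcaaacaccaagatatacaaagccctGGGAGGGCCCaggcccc
Ltf: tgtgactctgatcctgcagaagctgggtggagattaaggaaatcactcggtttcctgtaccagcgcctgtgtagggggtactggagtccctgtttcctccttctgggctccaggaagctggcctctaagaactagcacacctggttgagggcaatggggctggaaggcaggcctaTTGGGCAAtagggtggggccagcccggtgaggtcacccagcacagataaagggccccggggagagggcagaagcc
Reg3g: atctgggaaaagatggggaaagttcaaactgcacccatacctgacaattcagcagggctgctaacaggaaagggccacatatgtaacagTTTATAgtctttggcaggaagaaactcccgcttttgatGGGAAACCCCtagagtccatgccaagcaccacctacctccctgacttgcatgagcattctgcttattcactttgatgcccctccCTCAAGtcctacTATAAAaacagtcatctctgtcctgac

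The motifs searched on both strands were TATAAA (the TATA box), GGGA, any 4 bases and CC (like the site of NF-kappaB), TTGCNNAA (like that of C/EBP factors), TGTTTAC (forkhead factors), TTCNNNGAA (like that of STAT factors) and CTCAAG (like that of NKX2-1). Bpifa1 and Reg3g held TATAAA on the gene's strand, from base -29 and base -27 before the start, and 12.4% of all 32851 sequences in the table held it. Reg3g held it once more on the other strand, from base -161. Bpifb1 held the NF-kappaB-like motif from bases -78 and -17, with an overlapping match on the other strand from base -77, and Reg3g held it from base -123, against 17.6% of all sequences. CTCAAG was present in Bpifa1 from base -213, on the other strand, and in Reg3g from base -39, against 13.3% of all sequences. Ltf held TTGCNNAA on the other strand from base -75, against 9.56% of all sequences. Outside these 4 genes, Lcn2, Lyz1 and Slpi also held TTGCNNAA, and Pigr held the NF-kappaB-like motif. None of the 6 motifs was in all 4 sequences, and TGTTTAC and TTCNNNGAA, present in 3.17% and 7.02% of all sequences, were in none of the 4. A match or its absence describes the letters of this window and no more.

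Markers of other cells moved in the same comparisons, and they are given beside the 4 genes. Of the 13 club cell markers, 11 were tested: 7 rose in C/+ against WT and none fell (median log2 fold change 1.87), and 7 fell in C/C against C/+ and none rose (median -3.23). Scgb1a1, the most abundant secretoglobin of club cells, lay at 290 to 823 CPM in WT, 4482 to 8388 in C/+ and 343 to 549 in C/C. Scgb1a1 rose by 3.67 in C/+ against WT (edgeR adjusted p = 0.00906) and fell by 3.74 in C/C against C/+ (0.0027). Scgb3a1 alone of the 11 fell in C/C against WT (edgeR adjusted p = 0.0471). In that comparison 3 were lower and 1 higher at an unadjusted edgeR p under 0.05, and DESeq2 called Aldh1a1 and Scgb3a1 lower and Pon1 higher. The 13 markers summed to 6114 to 7365 CPM in WT, 10793 to 15538 in C/+ and 6906 to 7290 in C/C. This sum is held up by Cbr2, Ces1d and Aox3, which were abundant in all groups and not called by edgeR (log2 fold changes 0.05, -0.10 and -0.50 in C/+ against WT, where DESeq2 called Aox3 lower). Pon1, also not called by edgeR, had its highest mean in C/C (log2 fold change 0.96 against the WT mean of 52.1 CPM and 0.29 against the C/+ mean of 83.0 CPM), and Kcnj16 was at 0 in all libraries. The 9 goblet and serous cell markers summed to 14.0 to 20.5 CPM in WT, 17.1 to 46.3 in C/+ and 14.5 to 14.8 in C/C. The C/C sum is nearly all Spdef and Fcgbp (means of 7.18 and 6.62 CPM), which were not called. Of their 7 tested members, Muc5b rose in C/+ against WT (median 1.31), and Muc5b, Tff2 and Clca1 fell in C/C against C/+ (median -5.76). EdgeR called none in C/C against WT (median -2.44; 3 lower at an unadjusted p under 0.05), and DESeq2 called Muc5b and Tff2 lower. The 10 ciliated cell markers summed to 145 to 223, 118 to 273 and 148 to 167 CPM in WT, C/+ and C/C, a sum carried by Tppp3 at means of 125, 131 and 133 CPM. EdgeR called none in C/+ against WT (median -0.27, none at an unadjusted p under 0.05, none by DESeq2), while 2 fell in C/C against C/+ (median -1.24) and 3 in C/C against WT (median -1.44). In these last 2 comparisons 8 and 6 were lower at an unadjusted p under 0.05, and DESeq2 called 5 and 6 lower.

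Markers of cells that the EpCAM gate should leave out moved in the same comparisons. They were listed after values of these genes had been seen, so the counts are a description. All 10 endothelial markers (Pecam1, Cdh5, Kdr, Tek, Tie1, Emcn, Cldn5, Vwf, Bcl6b and Acvrl1) rose in C/+ against WT (median 2.39) and all 10 fell in C/C against C/+ (median -4.18), and edgeR called none in C/C against WT (median -1.85; 9 lower at an unadjusted p under 0.05, 5 lower by DESeq2). They summed to 54.8 to 235 CPM in WT, 444 to 816 in C/+ and 40.1 to 45.2 in C/C. Pecam1, an adhesion protein of endothelial cells, lay at means of 18.6, 98.2 and 5.63 CPM in WT, C/+ and C/C. Of 8 mesenchymal markers 7 were tested, and 4 (Col1a1, Col1a2, Col3a1 and Dcn) rose in C/+ against WT (median 2.06) while 5 (these and Pdgfrb) fell in C/C against C/+ (median -2.91). None of the 7 was called by edgeR in C/C against WT (median -0.81; 1 lower at an unadjusted p under 0.05), and DESeq2 called Pdgfrb lower. The 8 summed to 9.84 to 30.6 CPM in WT, 53.9 to 157 in C/+ and 9.75 to 10.4 in C/C. Club, endothelial and mesenchymal markers were thus all highest in C/+ in their called members, and the part of any of these cells in the results for the 4 genes was not tested.

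**Figure D4:**
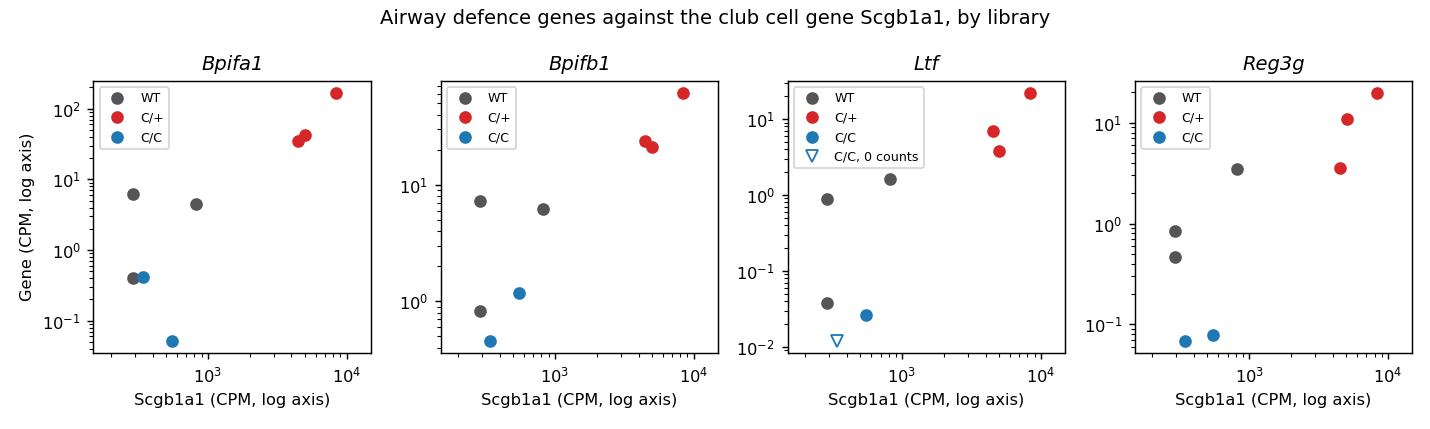
Level of Bpifa1, Bpifb1, Ltf and Reg3g (vertical axes, CPM, log scale) against that of Scgb1a1 (horizontal axes, CPM, log scale) in the 8 libraries, a point per library; the open triangle marks the C/C library with 0 Ltf counts, drawn at the bottom of the panel. C/+ libraries lie at the upper right in every panel, and the C/C points lie below all WT points for Reg3g; for Ltf the C/C points stand for 0 and 1 counts and the lowest WT point for 2.

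Expressed per 1000 Scgb1a1 reads, the WT and C/+ libraries overlapped for all 4 genes. Bpifa1 gave 21.2, 5.47 and 1.41 reads per 1000 Scgb1a1 reads in the WT libraries, 19.6, 8.39 and 7.78 in the C/+ libraries and 1.20 and 0.0949 in the C/C libraries. For Bpifb1 the values were 24.7, 7.49 and 2.82 in the WT libraries, 7.24, 4.21 and 5.26 in the C/+ libraries and 1.34 and 2.14 in the C/C libraries. On this scale the C/C libraries were the lowest of the 8 for both genes. Ltf gave 3.02, 1.96 and 0.128 in the WT libraries, 2.60, 0.752 and 1.57 in the C/+ libraries and 0 and 0.0474 in the C/C libraries. Reg3g gave 2.94, 4.21 and 1.60 in the WT libraries, 2.33, 2.16 and 0.787 in the C/+ libraries and 0.201 and 0.142 in the C/C libraries. For Reg3g the C/C libraries were again the lowest. For Ltf the 0 counts allow up to 0.201 per 1000 Scgb1a1 reads, above the value of WT replicate 3. Some other airway genes were likewise lowest in C/C on this scale: Scgb3a1 gave 1.74 and 0.380 in C/C and at least 5.73 in the other libraries, and Muc5b gave 0.535 and 0.474 against at least 1.02. Scgb3a2 overlapped, at 17.5 and 9.49 in the C/C libraries and 16.5 in C/+ replicate 3. Scgb1a1 itself differed little between C/C and WT (log2 fold change -0.07, edgeR adjusted p = 0.951). These ratios are a description over 8 libraries with no test.

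Lysozyme cuts the peptidoglycan of bacterial walls, and the mouse has a pair of genes for it, Lyz1 (ENSMUSG00000069515) and Lyz2 (ENSMUSG00000069516), side by side on chromosome 10. Lyz2 was the most abundant of the 10 genes, at 29510.3, 33327 and 33942 CPM in the WT libraries, 37002, 39345 and 35300.4 in the C/+ libraries and 37253 and 39847 in the C/C libraries. All C/+ and C/C libraries stood above all WT libraries, by a small margin. Means were 32259.8 ± 2401 CPM (SD, n = 3), 37216 ± 2031 (n = 3) and 38550.1 ± 1834 (n = 2). The log2 fold changes of 0.21 for C/+ against WT (SE 0.10, edgeR adjusted p = 0.304), 0.05 for C/C against C/+ (0.868) and 0.26 for C/C against WT (0.227) did not pass.

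Lyz1 lay at 1776, 2689 and 2785 CPM in the WT libraries, 4321, 3693 and 5086 in the C/+ libraries and 2865 and 3013 in the C/C libraries. C/+ libraries stood above all others, and the C/C libraries lay just above the highest WT library. Means were 2416 ± 557 CPM (SD, n = 3), 4366 ± 698 (n = 3) and 2939 ± 105 (n = 2). Lyz1 rose by 0.85 in C/+ against WT (log2, SE 0.18, edgeR adjusted p = 0.0302), or 1.81-fold. C/C against C/+ gave -0.57 (SE 0.20, edgeR adjusted p = 0.128), and C/C against WT 0.28 (SE 0.19, edgeR adjusted p = 0.433). The call in C/+ was kept without WT replicate 1 (0.027) or C/+ replicate 3 (0.0497) and lost in the other 6 fits that left out a library (adjusted p from 0.051 to 0.0835) and in a fit of the 2 groups alone (0.0559). The difference of C/C from C/+ passed without WT replicate 1 (edgeR adjusted p = 0.0281), without a low-count filter (0.0183) and by the DESeq2 test (adjusted p = 0.0318).

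The share of Lyz1 in the summed counts of both genes was 5.68%, 7.47% and 7.58% in the WT libraries, 10.5%, 8.58% and 12.6% in the C/+ libraries and 7.14% and 7.03% in the C/C libraries. The 95% Wilson intervals were narrow (5.64% to 5.72% for the first library, counting error only), so that the spread between libraries exceeds counting error. C/+ libraries held the 3 highest shares, with a mean of 10.5% ± 2.01 (SD, n = 3) against 6.91% ± 1.07 (n = 3) in WT and 7.09% ± 0.079 (n = 2) in C/C. A two-sided exact permutation test gave p = 0.1 for C/+ against WT, 0.2 for C/C against C/+ and 1 for C/C against WT (Benjamini-Hochberg adjusted over 3 comparisons, 0.3, 0.3 and 1). Designs of this size cannot go below 0.1 with 3 against 3 libraries or 0.2 with 2 against 3.

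The authors' counting may have split or dropped reads between these near-identical genes, so the first 300 bases of their coding sequences are printed to show where a read can tell them apart, with the differing bases in capitals (GENCODE M21 on GRCm38, chromosome 10 minus strand, Lyz1 at chr10:117287797-117292868 and Lyz2 at chr10:117277331-117282321).
Lyz1: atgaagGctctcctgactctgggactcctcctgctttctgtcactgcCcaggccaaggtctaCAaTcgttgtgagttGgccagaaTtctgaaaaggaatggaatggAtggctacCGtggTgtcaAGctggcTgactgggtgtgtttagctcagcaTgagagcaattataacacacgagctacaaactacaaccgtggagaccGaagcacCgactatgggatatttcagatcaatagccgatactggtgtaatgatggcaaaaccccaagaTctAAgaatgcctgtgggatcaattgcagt
Lyz2: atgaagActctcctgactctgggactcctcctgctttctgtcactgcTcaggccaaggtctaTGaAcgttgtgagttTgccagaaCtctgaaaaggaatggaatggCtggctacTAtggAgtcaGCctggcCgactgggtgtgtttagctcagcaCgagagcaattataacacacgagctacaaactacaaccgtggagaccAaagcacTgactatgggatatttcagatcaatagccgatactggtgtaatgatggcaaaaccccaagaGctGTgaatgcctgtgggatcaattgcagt

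Each coding sequence has 447 bases, and they differ at 22 of them, 20 in the stretch printed (95.1% identical over the whole), in 18 of 149 codons, with a longest identical run of 118 bases. Over the full transcripts, 16.1% of the 50-base windows of Lyz1 and 15.4% of those of Lyz2 were also found in the other gene, and 2.06% and 1.97% of the 100-base windows. Reads from those windows cannot be assigned to either gene, and how they were counted is not given in the sources used here, so that the level and share of Lyz1, the rarer of the pair, are uncertain.

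**Figure D5:**
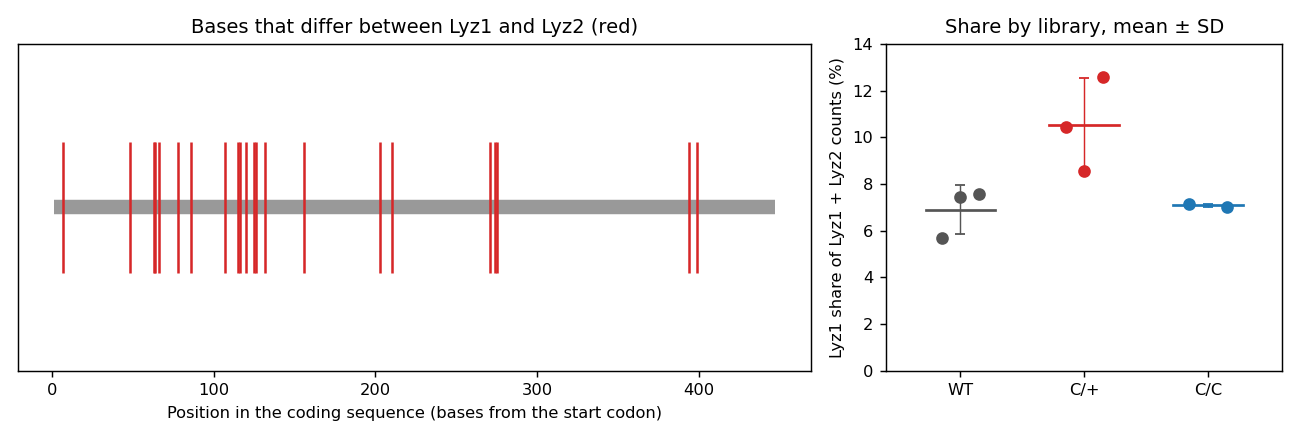
Left, positions of the 22 bases that differ between the coding sequences of Lyz1 and Lyz2 (red lines; horizontal axis, bases from the start codon). Right, share of Lyz1 in the summed counts of both genes (vertical axis, percent) by library, with the group mean and SD; the C/+ libraries lie between 8.58% and 12.6% and the other 5 at or below 7.58%.

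Macrophages make lysozyme and alveolar type 2 cells are known for Lyz2, and the markers of both are given beside it. The 10 macrophage markers summed to 13.6 to 25.0 CPM in WT, 15.7 to 18.1 in C/+ and 18.2 to 18.7 in C/C, and none of the 6 tested was called by edgeR or DESeq2 in any comparison, with 1 higher and 1 lower at an unadjusted p under 0.05 in C/+ against WT and likewise in C/C against WT. The 10 alveolar type 2 markers summed to 186894 to 214448 CPM in WT, 220964 to 228044 in C/+ and 253790 to 258168 in C/C. Of these, all 10 were tested and edgeR called none; at an unadjusted p under 0.05, 1 was higher and 2 lower in C/+ against WT, 1 higher in C/C against C/+, and 3 higher and 2 lower in C/C against WT. DESeq2 called Cxcl15 higher in C/+ against WT, and 3 higher (Sftpa1, Sftpc and Cxcl15) and Abca3 lower in C/C against WT. The sum is mostly Sftpc, with a mean of 121031 CPM in the WT libraries, 142305 in the C/+ libraries and 165119 in the C/C libraries, while Slc34a2, a phosphate carrier of these cells, had its highest mean in WT (13697 CPM, against 11315 and 11299), as did Abca3, Etv5 and Lpcat1. The median log2 fold changes of the 10 were -0.06, 0.07 and 0.13. Leukocyte markers summed to 1.49 to 6.55, 0.471 to 6.53 and 0.620 to 1.09 CPM. The part of these markers in the lysozyme values was not tested.

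Lcn2 (ENSMUSG00000026822, chr2:32384633-32388252, minus strand) encodes lipocalin 2, which binds bacterial siderophores and so withholds iron. Its levels were 1139, 657 and 604 CPM in the WT libraries, 787, 885 and 1063 in the C/+ libraries and 845 and 1050.3 in the C/C libraries. The groups overlapped, and the highest value was that of WT replicate 1. Means were 800.0 ± 295 CPM (SD, n = 3), 911 ± 140 (n = 3) and 947 ± 145 (n = 2), and no comparison passed (log2 fold changes 0.19, 0.06 and 0.24, edgeR adjusted p = 0.684, 0.936 and 0.615). Of 10 other iron and haem genes tested, edgeR called none in any comparison, and their medians were 0.05, 0.06 and -0.04. At an unadjusted edgeR p under 0.05, 3 were higher and 1 lower in C/+ against WT, 2 lower in C/C against C/+ and 1 higher in C/C against WT, and DESeq2 called Fth1 higher in both comparisons with WT and Lrp1 lower in C/C against C/+. The highest of them were Fth1, the ferritin heavy chain, at 899 to 1324 CPM and Lrp2, a receptor that takes up lipocalin, at 390.2 to 437 CPM in the 3 group means.

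Hp (ENSMUSG00000031722, chr8:109575128-109579172, minus strand) encodes haptoglobin, an acute phase protein that binds free haemoglobin. It lay at 679, 821 and 769 CPM in the WT libraries, 1014, 1072 and 950.0 in the C/+ libraries and 1089 and 1122 in the C/C libraries. The groups did not overlap and stood in the order WT, C/+, C/C, with means of 756 ± 71.9 CPM (SD, n = 3), 1012 ± 60.9 (n = 3) and 1106 ± 23.6 (n = 2). Hp rose in C/C against WT by 0.55 (log2, SE 0.12, edgeR adjusted p = 0.0392), or 1.46-fold. C/+ against WT gave 0.42 (SE 0.10, edgeR adjusted p = 0.0528) and C/C against C/+ 0.13 (SE 0.12, edgeR adjusted p = 0.604). The rise in C/C was kept without C/+ replicate 1 (0.0431) or 3 (0.0294) and lost in the other 6 fits that left out a library (adjusted p from 0.0552 to 0.255). It was also lost with the replicate block (adjusted p = 0.0962), and passed with sex as a covariate (0.0158).

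Of 11 other acute phase and complement genes, 7 were tested. EdgeR called none in C/+ against WT (median 0.44; 2 higher at an unadjusted p under 0.05) or in C/C against WT (median 0.12; 1 higher and 1 lower), and 1 fell in C/C against C/+ (median 0.20), namely Cp, which encodes the copper-carrying ferroxidase ceruloplasmin. Cp lay at 5.45 ± 1.99 CPM (SD, n = 3) in WT, 12.5 ± 5.27 (n = 3) in C/+ and 1.99 ± 0.766 (n = 2) in C/C, and fell by 2.67 in C/C against C/+ (SE 0.45, edgeR adjusted p = 0.00593). DESeq2 called Cp in all 3 comparisons, higher in C/+ against WT and lower in the others. Saa1 had 3 counts and Saa2 none in the whole table, and Saa3, at 0.274, 0.183 and 0.0506 CPM in the group means, was not called.

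Slpi (ENSMUSG00000017002, chr2:164354070-164389095, minus strand) encodes a small secreted inhibitor of neutrophil elastase with WAP domains. It is the 1 gene of the 10 whose annotated span overlaps another, the microRNA gene Mir7678 on the same strand. Its levels were 28.9, 34.3 and 27.8 CPM in the WT libraries, 48.6, 44.9 and 30.6 in the C/+ libraries and 30.2 and 29.9 in the C/C libraries. C/+ replicates 1 and 2 stood above the rest and C/+ replicate 3 lay within the WT range. Means were 30.3 ± 3.49 CPM (SD, n = 3), 41.4 ± 9.52 (n = 3) and 30.1 ± 0.246 (n = 2). C/+ against WT gave a log2 fold change of 0.45 (SE 0.16, edgeR adjusted p = 0.152) and C/C against C/+ -0.46 (SE 0.18, edgeR adjusted p = 0.173), neither of which passed, and both passed without C/+ replicate 3 (0.0197 and 0.0152). C/C against WT gave -0.01 (SE 0.18, edgeR adjusted p = 0.983).

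Of 12 other WAP-domain and protease inhibitor genes, 8 were tested, and 1 rose in C/+ against WT (median 0.51) while 2 fell in C/C against C/+ (median -0.88). For C/C against WT neither edgeR, at an adjusted or unadjusted p under 0.05, nor DESeq2 called any (median -0.04). Serpinb1a, an intracellular inhibitor of neutrophil proteases, lay at 0.367 ± 0.143 CPM (SD, n = 3) in WT, 3.08 ± 1.39 (n = 3) in C/+ and 0.245 ± 0.022 (n = 2) in C/C. Serpinb1a rose by 3.13 in C/+ against WT (SE 0.47, edgeR adjusted p = 0.0116) and fell by 3.65 in C/C against C/+ (SE 0.57, edgeR adjusted p = 0.00442). Wfdc1 fell by 3.47 in C/C against C/+ (SE 0.69, edgeR adjusted p = 0.0127), from 6.42 ± 1.53 to 0.578 ± 0.104 CPM. Wfdc2, the most abundant of the list, lay at 1873 to 2258 CPM in the 3 group means and was not called.

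Pigr (ENSMUSG00000026417, chr1:130826684-130852249, plus strand) encodes the polymeric immunoglobulin receptor, which carries IgA across the epithelium and is shed with it as secretory component. It lay at 35.1, 10.7 and 6.10 CPM in the WT libraries, 14.5, 11.6 and 10.8 in the C/+ libraries and 7.64 and 7.09 in the C/C libraries. WT replicate 1, with 1357 counts, stood far above all other libraries, so that the WT mean of 17.3 ± 15.6 CPM (SD, n = 3) rests on it. The means were 12.3 ± 1.95 (n = 3) in C/+ and 7.37 ± 0.390 (n = 2) in C/C, which did not overlap. No comparison passed: C/+ against WT gave -0.49 (SE 0.49, edgeR adjusted p = 0.626), C/C against C/+ -0.75 (SE 0.57, 0.52) and C/C against WT -1.23 (SE 0.57, 0.235). Without WT replicate 1 the value for C/+ against WT turned to 0.57 (adjusted p = 0.259) and that for C/C against WT moved to -0.19. In a fit of C/+ and C/C alone, which leaves the WT spread out, Pigr passed for C/C against C/+ (adjusted p = 0.0471).

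Of 8 genes for the supply of IgA, all were tested, and 1 rose in C/+ against WT (median -0.62) and fell in C/C against C/+ (median -1.15). EdgeR called none in C/C against WT (median -1.25; 3 lower at an unadjusted p under 0.05) and DESeq2 called Igkc lower. The gene called in the first 2 comparisons was Cxcl12, a chemokine that draws lymphocytes and plasma cells, at 7.38 ± 5.71 CPM (SD, n = 3) in WT, 43.3 ± 18.1 (n = 3) in C/+ and 1.92 ± 1.28 (n = 2) in C/C. Cxcl12 rose by 2.54 in C/+ against WT (SE 0.53, edgeR adjusted p = 0.0308) and fell by 4.48 in C/C against C/+ (SE 0.70, edgeR adjusted p = 0.00451). The plasma cell genes themselves were uneven: Igha lay at 0 to 54.8 CPM over the WT libraries, 0 to 0.881 in C/+ and 0 in both C/C libraries, and Jchain at 0.149 to 7.02, 0.233 to 1.96 and 0.184 to 0.235 CPM.

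Other secreted defence genes were measured over the same libraries. Of 11 lung collectins, chemokines and peroxidase genes, 5 were tested and edgeR called none in any comparison (medians 0.34, 0.14 and 0.30). At an unadjusted edgeR p under 0.05, 3 were higher in C/+ against WT, 1 lower in C/C against C/+ and 3 higher in C/C against WT, and DESeq2 called Cxcl15 higher in both comparisons with WT and Sftpa1 and Cxcl17 higher in C/C against WT. The highest were Sftpa1, surfactant protein A, at 22526 to 27658 CPM and Cxcl15, a lung chemokine, at 9080.2 to 11558 CPM in the 3 group means. Lpo, the lactoperoxidase of airway fluid, had 0 counts. Of 8 defensin, cathelicidin and calprotectin genes, 1 was tested, S100a9, at 0.195, 0.614 and 0.0475 CPM in the group means, and it was called neither by edgeR, at an adjusted or unadjusted p under 0.05, nor by DESeq2. Defb1 had 8 counts, Defb14 had 2, S100a8 had 21, and Defb2, Defb3, Defb4 and Camp had none in the whole table.

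Receptors and regulators through which cytokines and microbes are known to induce such genes were described as a list of 22, all tested. EdgeR called none in C/+ against WT (median -0.08), where 5 were lower at an unadjusted p under 0.05 and DESeq2 called Il1r1 and Nfkb1 lower. In C/C against C/+, 2 rose and 1 fell (median -0.01). Nfkbiz, a nuclear partner of NF-kappaB that is known for driving Lcn2, lay at 92.4 ± 14.5 CPM (SD, n = 3) in WT, 67.7 ± 19.0 (n = 3) in C/+ and 201 ± 29.0 (n = 2) in C/C. Nfkbiz rose by 1.57 in C/C against C/+ (SE 0.21, edgeR adjusted p = 0.00232) and by 1.12 in C/C against WT (SE 0.21, edgeR adjusted p = 0.0305). Cebpd, a factor of the acute phase response, rose by 1.46 (SE 0.25, edgeR adjusted p = 0.00651) and 1.60 (SE 0.25, edgeR adjusted p = 0.0159) in the same comparisons, from 23.1 CPM in WT and 25.6 in C/+ to 70.0 in C/C. Tlr3, a receptor for double-stranded RNA, fell by 0.85 in C/C against C/+ (SE 0.16, edgeR adjusted p = 0.00869). Against WT, 3 rose in C/C and 2 fell (median -0.05): beside Nfkbiz and Cebpd, Cebpb rose by 1.18 (SE 0.27, edgeR adjusted p = 0.046), and the interleukin 1 receptor Il1r1 and the lipopolysaccharide receptor Tlr4 fell by 0.75 (SE 0.11, edgeR adjusted p = 0.0123) and 0.70 (SE 0.12, edgeR adjusted p = 0.0236). Receptors for interleukin 17, Il17ra and Il17rc, were measured at 25.6 to 30.3 CPM in the group means and were not called.

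Compared per length (RPKM, CPM per kilobase of summed exons), the 10 genes spanned a wide range of levels. In WT the order was Lyz2 (24513.5 RPKM), Lyz1 (1913), Hp (471), Lcn2 (305), Slpi (25.7), Pigr (4.30), Bpifa1 (2.39), Bpifb1 (1.31), Reg3g (0.754) and Ltf (0.244). Over the WT libraries Hp overlapped Lcn2, and each neighbour from Pigr down to Ltf overlapped the next, so that the order of these last 5 is not settled. In C/+ the first 4 places were the same, and Bpifa1 came next at 52.1 RPKM, overlapping Slpi at 35.1. Below them came Bpifb1 (9.72), Reg3g (5.35), Ltf (3.15) and Pigr (3.06), each overlapping the next. In C/C the order was Lyz2 (29293), Lyz1 (2327), Hp (688), Lcn2 (361), Slpi (25.5), Pigr (1.83), Bpifb1 (0.226), Bpifa1 (0.151), Reg3g (0.0348) and Ltf (0.00378), and Bpifa1 overlapped both Bpifb1 and Reg3g.

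The genes whose pattern over the 8 libraries was most like that of each member were sought by Pearson correlation of log2 CPM among 11678 named genes of at least 1 CPM on average. Bpifb1 and Ltf had each other as the nearest gene (r = 0.989), followed by Vsir (0.981) and Slc25a37 (0.979) for Bpifb1 and by Ifi44 (0.989) and Slc38a1 (0.982) for Ltf. Bpifa1 had Tfpi (0.996), Lipa (0.993) and Zcchc24 (0.992), and Reg3g had Nkain4 (0.995), Ttyh3 (0.990) and Gbp2 (0.988). Lyz1 had Pcsk6 (0.970), Cwc27 (0.962) and Nfia (0.961), and Lyz2 had Atpif1 (0.975), Tomm22 (0.975) and Txndc17 (0.972). Hp had Arpc3 (0.984), Sec61b (0.981) and Swi5 (0.979), and Lcn2 had Cblb (0.975), Ppp2r5a (0.972) and Lifr (0.959). Slpi had Mical3 (0.977), Phlda3 (0.962) and Pip4k2a (0.961), and Pigr had Zfp329 (0.946), Zfp715 (0.931) and Notch1 (0.930). These values share 8 libraries, their depth and their grouping, and are a description with no test.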

How the data were processed

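RNA of sorted EpCAM+CD45- mouse lung cells was extracted with a micro spin-column kit and DNase, and stranded mRNA libraries were made, per the labels' protocols. The authors deposited whole-number read counts per Ensembl gene for 8 libraries, not normalized. The submitters' processing notes name STAR 2.4.2a, DESeq2 and the human build GRCh38, although the genes carry mouse identifiers. How reads were counted, and with which strand setting, is not given in the sources used here. Symbols, positions and exon lengths came from GENCODE M21 (GRCm38), which gave a symbol for 42548 of 43432 identifiers.

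From these counts, genes were filtered with filterByExpr by group, scaled by TMM factors and fitted in 1 model with a mean per group over all 8 libraries (edgeR 4.0.16, R 4.3.3). Two-sided quasi-likelihood F tests were adjusted by Benjamini-Hochberg over 14906 genes, and an adjusted p under 0.05 is called. The SE of a log2 fold change is its size divided by the square root of F. Depth (17057216 to 52319957 counts) makes counting error small above a few CPM. Rate ratios of pooled counts carry exact 95% intervals that cover counting error only. The fit was tested on simulated counts: it recovered 54%, 51.0% and 62.6% of genes changed 2-fold and 82%, 84.5% and 71.9% of those changed 4-fold in C/+ against WT (14613 genes), C/C against C/+ (14620) and C/C against WT (14601), with 16, 9 and 10 false calls. The simulated libraries used the dispersions of the same fit and differed only in depth and the planted changes, not in sex or cell mixture. Alternatives were DESeq2 (1.42.0) size factors or test, other low-count filters, the compared groups alone, a replicate block, sex as a covariate and each library left out.

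Named are the 10 genes, called genes of 9 further defence lists (with none called, up to 2 of the highest) and the 3 genes most like each of the 10. Bpifb5, Lbp, Bpi, Wfdc2, the Reg and Saa genes, Lpo, the defensin list, Igha, Jchain, Il17ra, Il17rc, single cell markers and the genes DESeq2 called were named in addition, and the endothelial and mesenchymal lists made, after values were seen. The genes and lists were chosen with earlier results of these data known. Hp had no upstream sequence in the table used.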

Additional observations from a re-analysis of the deposited data

How the results depend on the processing

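Of 444 single-gene values recomputed under other settings, 366 kept their direction and side of the threshold, 40 lost and 31 gained a call and 7 changed sign. Those 7 were never called: Pigr in C/+ against WT without WT replicate 1 (0.57; range with a library left out -0.90 to 0.57), Lcn2 in C/C against C/+ with sex as a covariate (-0.14) and without C/+ replicate 1 (-0.039) or C/C replicate 2 (-0.11; range -0.11 to 0.21), Lcn2 in C/C against WT with sex (-0.090), and Slpi in C/C against WT with sex (0.14) and without WT replicate 2 (0.086; range -0.069 to 0.086); the cause was not tested.

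In C/+ against WT, 4 of the 10 genes were called, but 7 without a low-count filter, 7 with sex, 1 in a fit of the compared groups alone and 0 to 7 with a library left out. All genes called there numbered 585 (87.2% higher), 1227 by the DESeq2 test (73.7% higher), 1299 without the filter (72.7%), 356 for the groups alone, 1700 with sex (61.6%) and 103 to 729 with a library left out. In C/C against C/+, 4 were called, but 2 with at least 1 CPM in 5 libraries, where Ltf and Reg3g were not tested because of the filter, and 0 to 5 with a library left out. All genes called there numbered 1056, 1614 without the filter and 185 to 1308 with a library left out; the 0 and 185 are fits with 1 C/C library, with fewer samples. In C/C against WT, 1 was called, but 4 by the DESeq2 test, 6 without the filter, 2 (Bpifa1 and Reg3g, lower, with the call for Hp lost) with the replicate block and 0 to 2 with a library left out. All genes called there numbered 444, 1410 by the DESeq2 test, 1456 without the filter, 1348 with sex, 176 with the block and 30 to 782 with a library left out.

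The labels do not say whether replicate numbers pair the libraries. Deviations of same-numbered WT and C/+ libraries correlated at -0.206, -0.049 and -0.056. They correlated at 0.087 and -0.044 for C/+ and C/C, and at -0.086 and -0.026 for WT and C/C. Each same-numbered WT and C/+ pair held libraries of opposite sex, so these correlations cannot settle the pairing. With the replicate block 4 of the 10 were called in C/+ against WT (Bpifa1, Bpifb1, Reg3g and Lyz1) and 4 in C/C against C/+, of 457 and 799 genes called. Ltf and Reg3g in C/C rest on 1 and 6 counts, although the C/C libraries held 46478577 and 41950581 counts in all. The sizes of their differences from C/C are thus imprecise.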
